A study of Arabidopsis thaliana with 6 samples.

Results

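The Aux/IAA genes described here are the 7 Arabidopsis thaliana genes that a probe set with 1 gene in the platform annotation names as IAA followed by a number. They are IAA18 (AT1G51950), IAA29 (AT4G32280), IAA30 (AT3G62100), IAA20 (AT2G46990), IAA33 (AT5G57420), IAA34 (AT1G15050) and IAA31 (AT3G17600). They were taken from 13356 genes named in this way, and each was read by 1 probe set. The remaining 22 of 29 loci in a list of the family, among them IAA1 to IAA17 and IAA19, were not analysed here, so the values below do not describe the family as a whole.

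Transcripts were measured on 6 Affymetrix arrays in whole seedlings of the Columbia ecotype, grown for 10 d on agar under 16 h of light and 8 h of dark. For the last 8 h, 3 samples were kept in liquid medium with 1e-07 M 2,4-D, a synthetic auxin, and also 1e-06 M brassinazole, which blocks the synthesis of brassinosteroids, the growth-promoting steroid hormones of plants. The other 3 samples had 1e-07 M 2,4-D alone. Seedlings without 2,4-D were not analysed here, so all values are from auxin-treated plants and no induction by auxin can be read from them. The titles call the samples biological replicates, but per the labels RNA of 3 seedlings was pooled. The labels do not settle whether each replicate was a pool of its own. If it was not, the p-values below rest on a spread that may be technical.

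Aux/IAA proteins are repressors of auxin-responsive transcription. They bind auxin response factors, which sit on the promoters of auxin-inducible genes, and recruit TOPLESS co-repressors. Auxin joins the canonical Aux/IAA proteins to the F-box receptors TIR1 and AFB through a short degron called domain II, and the repressor is then ubiquitinated and degraded. Many Aux/IAA genes are themselves induced by auxin, so their transcripts serve as readouts of the pathway and feed back on it. IAA18 and IAA29 are usually placed among the members with a domain II degron, and IAA20, IAA30, IAA33 and IAA34 among those without one.

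The arrays held both shoot and root RNA. RCA, which encodes Rubisco activase of green tissue, lay between 22954 and 29053 with brassinazole and between 24531 and 25764 with 2,4-D alone, in linear signal. PYK10, a beta-glucosidase abundant in roots, lay between 14490 and 17349 with brassinazole and between 13503 and 17410 with 2,4-D alone. Spearman correlations between arrays, across tested probe sets, were 0.988 to 0.993 within the brassinazole group, 0.990 to 0.992 within the 2,4-D group and 0.979 to 0.985 between the groups. Some array measures differed between the groups or set 1 array apart. The median signal was 188.8 to 193.8 with brassinazole and 194.2 to 195.6 with 2,4-D alone. The 5S rRNA control read 230 to 284 with brassinazole and 134 to 174 with 2,4-D alone, and the signal ratio of the 3' to the 5' probe sets in 1 actin control set, which rises as RNA degrades, was 18.8 to 21.1 with brassinazole and 12.3 to 17.3 with 2,4-D alone. In the second actin control set that ratio was 2.21 to 2.43 with brassinazole and 2.31 to 2.52 with 2,4-D alone. The 25S rRNA control read 981 on 2,4-D replicate 1 and 174 to 215 on the other 5 arrays. A bioB spike-in control read 338 on brassinazole replicate 3 and at most 204 on the others. Other spike-in control sets differed in how far they put that array apart. A bioC set read 285 there and at most 186 on the other arrays, and a bioD set read 3800 there against at most 2746. Another bioB set read 282 there and at most 273 on the other arrays, and yet another read 308 there against at most 309. The part of these measures in the values below was not tested.

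All 7 Aux/IAA genes had a lower mean signal with brassinazole than with 2,4-D alone, but 0 of the 7 passed the test across all probe sets. The differences ranged from a log2 change of -0.028 for IAA34 to -0.79 for IAA20. In IAA18, IAA29 and IAA30 the 3 signals with brassinazole all lay below the 3 with 2,4-D alone. In the other 4 genes the groups overlapped. These are whole seedlings, in which fewer cells that express a gene and less RNA per cell cannot be told apart. The plot of signals by array shows the values.

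**Figure D1:**
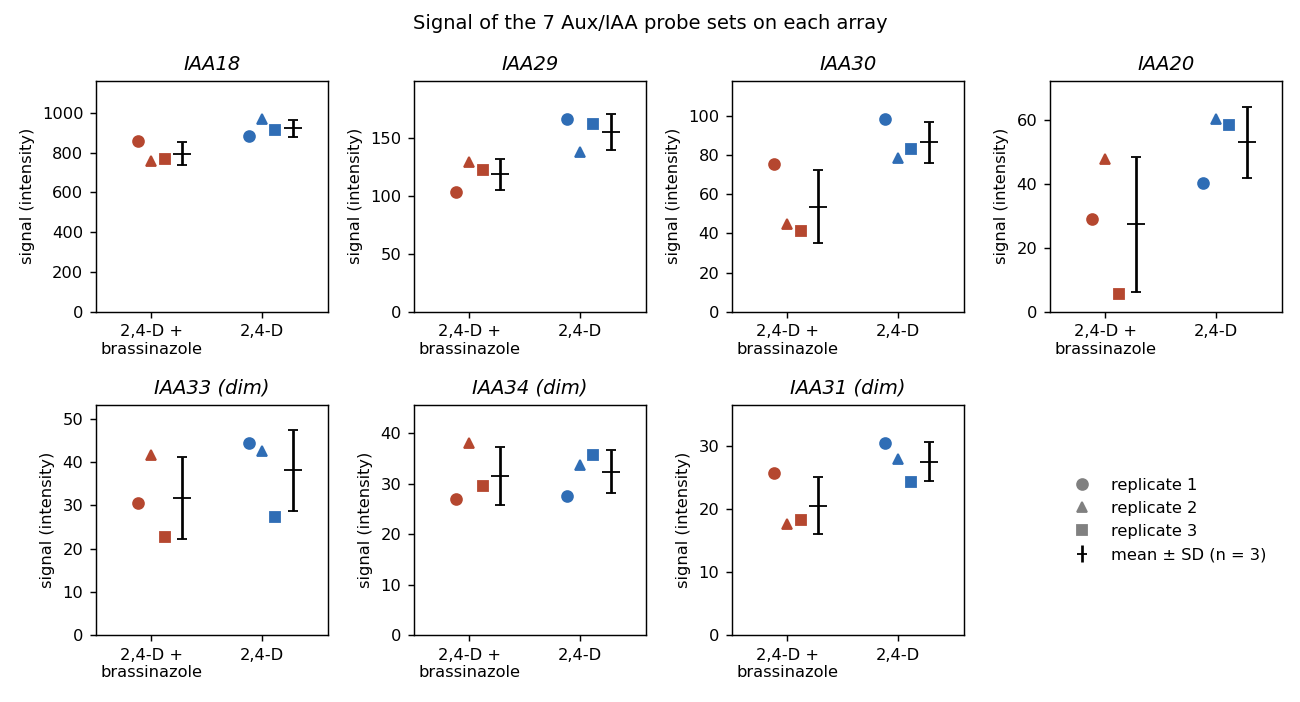
Linear signal (y axis, from 0) of each Aux/IAA probe set in seedlings given 2,4-D plus brassinazole (left in each panel) or 2,4-D alone (right), 1 point per array, with the mean ± SD of the 3 arrays beside the points. The groups are apart for IAA18, IAA29 and IAA30 and overlap for IAA20, IAA33, IAA34 and IAA31, and the IAA20 signal of 5.49 on brassinazole replicate 3 lies far below its other 5 signals.

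The test was limma on log2(signal + 16), two-sided, with Benjamini-Hochberg adjustment and a threshold of 0.05. It was run over the 17059 probe sets whose mean log2 value was at or above the 25th percentile of all 22746. The dimmest of these had a mean equal to a signal of 34.2. IAA18, IAA29, IAA30 and IAA20 were left by this filter and are called tested, while IAA33, IAA34 and IAA31 fell under it and are called dim. Values of the dim genes come from the same fit over all 22746 probe sets with no filter. Changes are 2,4-D plus brassinazole minus 2,4-D alone, and the scale understates the change of low signals.

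Of the probe sets tested, 7.52% passed and 4.08% passed as lower with brassinazole. None of the 4 tested Aux/IAA genes was among them by limma, at adjusted p-values of 0.0989 to 0.172. With no filter, 0 of 7 passed after adjustment (3.9% of all probe sets did), and 3 of 7, IAA18, IAA29 and IAA30, had an unadjusted p under 0.05, all lower (9.26% of all probe sets did so as lower). Signals of the groups did not overlap, with brassinazole lower, in 3 of the 7 genes and in 12.3% of all probe sets. The median log2 change was -0.26 over the 7 genes and -0.011 over all 22746 probe sets. A negative change was found for 7 of 7 genes and for 52.2% of all probe sets.

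**Figure D2:**
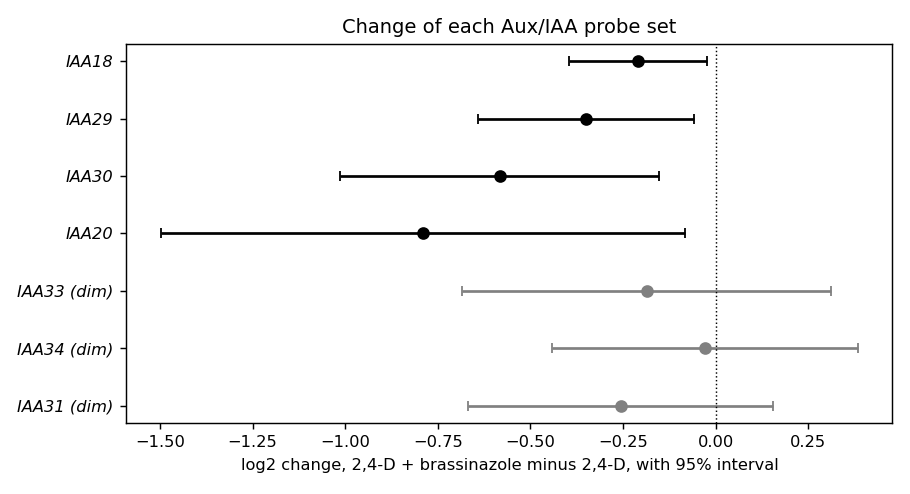
Log2 change of each Aux/IAA gene (x axis, 2,4-D plus brassinazole minus 2,4-D alone, on the log2(signal + 16) scale) with its 95% interval from limma, not adjusted for the number of probe sets, in order of mean signal from the top and with dim genes in grey. The intervals of the 4 tested genes lie below 0, from -0.21 for IAA18 to -0.79 for IAA20 at their centres, and those of the 3 dim genes, from the fit with no filter, include 0. In that fit the interval of IAA20 includes 0 too. With the filter, 1946 of the 17059 probe sets tested had an interval below 0.

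IAA18 is a canonical repressor whose stabilising mutations, known as crane, reduce lateral root formation and disturb cotyledon placement. It was the brightest Aux/IAA probe set, at the 82.3rd percentile of all probe sets. Its signal was 861, 759 and 766 on the 3 arrays with brassinazole, against 886, 967 and 913 on the 3 arrays with 2,4-D alone. The groups did not overlap, but the highest brassinazole array and the lowest 2,4-D array were close. The means were 795 ± 56.8 with brassinazole and 922 ± 41.5 with 2,4-D alone (SD, n = 3 each). The log2 change was -0.21 ± 0.0869 (SE), or 0.864 times the level with 2,4-D alone, with a limma adjusted p of 0.168. The 95% interval of that ratio ran from 0.759 to 0.983, so a ratio under 0.759 lies outside it. IAA18 was also the most precise of the tested members, with a residual SD of 0.0833 on the log2 scale against a median of 0.135 over all probe sets tested.

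IAA29 carries a domain II and is known as a gene that shade and phytochrome-interacting factors induce in growing shoots. Its signal was 104, 129 and 123 with brassinazole, against 166, 138 and 162 with 2,4-D alone. All 3 brassinazole arrays were below all 3 arrays with 2,4-D alone, and the gap between brassinazole replicate 2 and 2,4-D replicate 2 was small next to the spread within either group. The means were 119 ± 13.4 with brassinazole and 155 ± 15.2 with 2,4-D alone (SD, n = 3 each). This gave a log2 change of -0.35 ± 0.135 (SE), a ratio of 0.785 with a 95% interval of 0.642 to 0.960, and a limma adjusted p of 0.142.

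IAA30, IAA20 and IAA31 form a group of close relatives. IAA20 and IAA30 lack domain II and are therefore not expected to be degraded through TIR1 in the way canonical members are. IAA20 and IAA30 are known as targets of the auxin response factor MONOPTEROS in the root vasculature, where they limit xylem formation. The IAA30 signal was 75.2, 44.8 and 41.1 with brassinazole, against 98.2, 78.3 and 82.9 with 2,4-D alone. Brassinazole replicates 2 and 3 were far below every array with 2,4-D alone, while replicate 1 was only just below the lowest of them. The means were 53.7 ± 18.7 with brassinazole and 86.5 ± 10.4 with 2,4-D alone (SD, n = 3 each). The log2 change was -0.58 ± 0.201 (SE), a ratio of 0.668 with a 95% interval of 0.495 to 0.900, and the limma adjusted p of 0.0989 was the lowest of the 7 genes. Without brassinazole replicate 1, the array nearest to the 2,4-D group, the log2 change was -0.79 with an adjusted p of 0.0295, and 3.39% of all probe sets passed as lower. Without any other single array the adjusted p was 0.152 to 0.270 and the change -0.46 to -0.64, and without both 2,4-D replicate 1 and brassinazole replicate 3 they were 0.429 and -0.38.

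IAA20 had the largest log2 change and the largest spread. Its signal was 29.0, 47.5 and 5.49 with brassinazole, against 40.2, 60.0 and 58.3 with 2,4-D alone. The groups overlapped, since brassinazole replicate 2 lay above 2,4-D replicate 1, and the lowest array stood far from all others. The log2 change was -0.79 ± 0.329 (SE), with a ratio of 0.578, a 95% interval of 0.354 to 0.944 and a limma adjusted p of 0.172. Fitted with no filter, the interval was 0.330 to 1.01, which includes no change, and the adjusted p was 0.294 (unadjusted p = 0.0549). With the filter, the log2 change without brassinazole replicate 3 was -0.35, with an adjusted p of 0.455. Without brassinazole replicate 2 it was -1.13, with an adjusted p of 0.0579. Without any other single array the change was -0.93 to -0.71 and the adjusted p 0.198 to 0.360. The size of the difference thus depended on single arrays, most of all on brassinazole replicate 3. The residual SD of IAA20, 0.590, was at or above that of 99.8% of probe sets tested. IAA20 was only just bright enough to be tested, at the 25.5th percentile. Its mean signal of 27.3 ± 21.1 with brassinazole lay under the filter's level of 34.2, and that of 52.9 ± 11.0 with 2,4-D alone lay over it (SD, n = 3 each), so it was tested because of the 2,4-D group.

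IAA31, the third gene of this group and a dim one, read 25.7, 17.7 and 18.2 with brassinazole, against 30.4, 27.8 and 24.2 with 2,4-D alone. Brassinazole replicates 2 and 3 were below every array with 2,4-D alone, and replicate 1 was above 2,4-D replicate 3. Its log2 change was -0.26 ± 0.182 (SE), with a limma adjusted p of 0.530 over all probe sets and a 95% interval from -0.67 to 0.16. Brassinazole replicates 2 and 3 gave the lower signals for IAA30 and IAA31, as they did for IAA18, which is not of this group, and replicates 1 and 3 did for IAA20.

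IAA33 and IAA34 are divergent family members without domain II. IAA33 is known from the root tip, where it acts in distal stem cell identity, and IAA34 from the apical hook, where the receptor kinase TMK1 stabilises its protein. IAA33 read 30.5, 41.6 and 22.8 with brassinazole, against 44.3, 42.5 and 27.4 with 2,4-D alone. It lay at the 24.98th percentile, just under the filter that IAA20 just passed. The IAA33 signals of the groups overlapped over most of their range, and its log2 change was -0.19 ± 0.220 (SE, limma adjusted p = 0.740). IAA34 read 26.9, 38.0 and 29.6 with brassinazole, against 27.5, 33.7 and 35.7 with 2,4-D alone. These 6 signals were intermixed, with means of 31.5 ± 5.77 with brassinazole and 32.3 ± 4.25 with 2,4-D alone (SD, n = 3 each), and a log2 change of -0.028 ± 0.182 (SE, limma adjusted p = 0.964). Its 95% interval ran from -0.44 to 0.38 and leaves room for differences as large as that of IAA29 in either direction. No detection calls were used here, so whether the dim transcripts were present is not known.

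Relative to the mean of the 2,4-D arrays, the median over all 7 genes was -0.17, -0.23 and -0.34 (log2 difference) on brassinazole replicates 1, 2 and 3. On the 2,4-D arrays it was 0.092, 0.046 and -0.013. All 7 genes were below the 2,4-D mean on brassinazole replicates 1 and 3, and 5 of 7 were on replicate 2. The array with the lowest value differed from gene to gene, and no test of single arrays was run. IAA29 was lowest on brassinazole replicate 1, at -0.51, where IAA18 and IAA30 were nearest to the 2,4-D mean, at -0.096 and -0.16. IAA20 was nearest on replicate 2, at -0.10, and lowest on replicate 3, at -1.67. The median log2 change of the 7 genes was -0.26 with all arrays. With 1 array left out it ranged from -0.33, without brassinazole replicate 2, to -0.21, without brassinazole replicate 3.

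**Figure D3:**
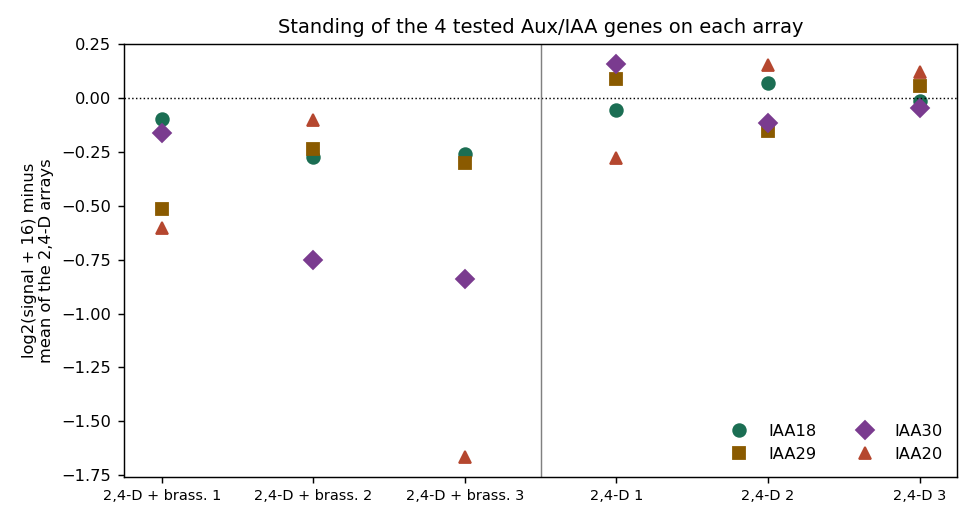
Log2(signal + 16) of IAA18, IAA29, IAA30 and IAA20 on each array minus the gene's mean over the 3 arrays with 2,4-D alone (y axis), with the 3 arrays with brassinazole left of the line and the 3 with 2,4-D alone right of it. The points with brassinazole lie between -0.096 and -1.67, those of IAA20 being from a gene tested because of its 2,4-D arrays, and the points with 2,4-D alone lie between -0.28 and 0.16.

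Whether the 4 tested genes changed by different amounts could not be settled with these arrays. For each of the 6 pairs, the difference in log2(signal + 16) was taken within each array and compared between the groups. The largest difference of changes was 0.58, for IAA18 minus IAA20, with an exact permutation p of 0.4 (two-sided, 0.72 adjusted over the 6 pairs). The lowest p was 0.2, for IAA18 minus IAA30, whose changes differed by 0.37. With 3 arrays against 3 the smallest p possible is 0.1, so these tests could not have passed, and they do not show that the genes changed alike.

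Among all probe sets tested, 0.709% had a log2 change as low as that of IAA20 or lower, 1.97% as low as IAA30, 6.86% as low as IAA29 and 16.5% as low as IAA18. Dim probe sets vary more. Among the 5687 probe sets between the 25th and 50th percentiles of brightness, 1.00% were as low as IAA20, 2.58% as low as IAA30 and 10.4% as low as IAA29. The residual SD of IAA29 was below the median of that band (0.139 against 0.193), that of IAA30 above it (0.278), and that of IAA20 was at or above that of 99.4% of the band. IAA18 was among the probe sets above the 75th percentile, where 12.0% of probe sets had a change as low.

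**Figure D4:**
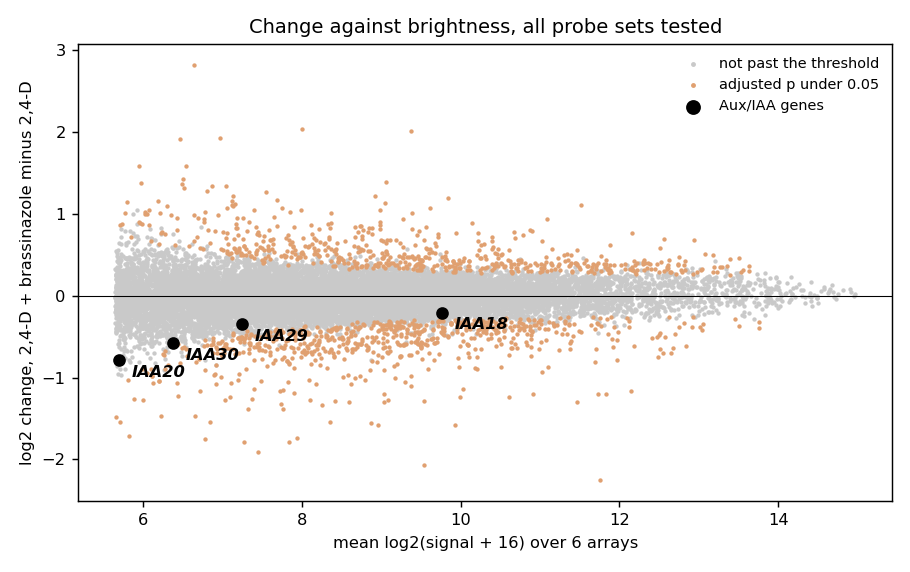
Log2 change (y axis, 2,4-D plus brassinazole minus 2,4-D alone) against mean log2(signal + 16) over the 6 arrays (x axis) for the 17059 probe sets tested, with those past an adjusted p of 0.05 in orange and the 4 tested Aux/IAA genes in black. The Aux/IAA genes lie between -0.21 and -0.79 at the lower side of the grey cloud of probe sets that did not pass, and the spread of the cloud is wider at low brightness.

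GH3.3, an enzyme that conjugates auxin to amino acids, is a standard auxin-inducible gene outside the family. It was picked with its values known and had the lowest p of all 17059 probe sets tested. It is therefore given for scale only, and no conclusion about the Aux/IAA genes is drawn from it. Its signal was 1441, 1638 and 1635 with brassinazole, against 7707, 7248 and 7645 with 2,4-D alone, and it fell by 2.25 ± 0.0791 (log2 change, SE, limma adjusted p = 1.78e-09).

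Of 43 other auxin signalling loci, 0 had a single-gene probe set in the annotation, and they were not analysed here. These were 23 auxin response factors, 6 TIR1 and AFB receptors, 9 subunits and regulators of their ubiquitin ligase, and 5 TOPLESS co-repressors. With the annotation used here, the genes that act directly with the Aux/IAA proteins are therefore not set beside them.

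For each tested gene, the named probe sets most like it over the 6 arrays were found by Pearson's r of log2(signal + 16) among 9411 tested probe sets with 1 gene. Those most like IAA18 were AT3G43540, AT4G32120 and AT2G23450 (r = 0.986, 0.986 and 0.981). For IAA29 they were AT3G03180, AT3G58090 and AT5G67020 (r = 0.986, 0.986 and 0.984). For IAA30 they were AT2G25530, AT3G28040 and EXLA2, an expansin-like gene (r = 0.990, 0.987 and 0.985). EXLA2 read 112 ± 18.1 with brassinazole and 158 ± 14.3 with 2,4-D alone (SD, n = 3 each), a log2 change of -0.45 ± 0.141 (SE, limma adjusted p = 0.0729). For IAA20 they were SEC6, a subunit of the exocyst, AT4G19140 and AT2G40960 (r = 0.992, 0.990 and 0.988). Values of r of 0.95 or more were found for 30, 29, 37 and 59 of the 9411 probe sets for IAA18, IAA29, IAA30 and IAA20. With 6 arrays that share their group difference and so many candidates, such values are a description only.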

How the data were processed

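Total RNA of whole seedlings (6 µg per sample) was labelled and hybridised to Affymetrix arrays, per the labels. The deposited values are linear intensities, 1 per probe set and array. Per the submitters' processing notes the authors used MAS5, whose version, detection calls and filters are not stated there. The mean of the middle 96% of values was 500 on each array, so they came scaled to a common level, and a shift of most transcripts together would not be seen. The table held 22810 probe sets, and 64 controls stayed out of the tests.

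Genes were named from the platform annotation, which gave 1 gene for 13513 probe sets, several for 503 and no entry for 8794. Of the 13513, 13436 matched a RefSeq table of TAIR10.1 for locus names, and no coordinates are given because no build is named for the array.

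Signals were taken as log2(value + 16), filtered at the 25th percentile, and tested with limma 3.58.1 under R 4.3.3 (lmFit and eBayes with a mean-variance trend), without a replicate block. The dim genes were fitted over all probe sets. Means and SDs are of linear signals. The number of arrays, 3 per group, limits the precision. The steps were tested on simulated data. Every gene the rule finds is named, with the 3 most correlated probe sets of each tested one. GH3.3 and the seedling markers were picked with their values known. The members and lists were chosen with earlier results of these data known.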

Additional observations from a re-analysis of the deposited data

How the results depend on the processing

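Over the alternatives run (pseudocounts of 1 and 64, a filter at the 50th percentile or none, no variance trend, robust eBayes, median centring, quantile normalization, a replicate block, and arrays left out), the change of the 4 tested genes was negative in 61 of 61 fits and past the threshold in 1. That was IAA30 without brassinazole replicate 1 (-0.79, adjusted p = 0.0295), the only fit in which the number of tested Aux/IAA genes called was 1 and not 0. The filter at the 50th percentile left IAA18 alone. The count of negative changes is no test of direction, since most of it was fixed in advance. The filter, the variance trend, robust eBayes and the replicate block leave the log2 change itself as it was. In IAA18, IAA29 and IAA30 the groups did not overlap, so neither another pseudocount nor leaving arrays out could turn the sign. With 1 array left out, IAA18 ranged from -0.27 to -0.18, IAA29 from -0.43 to -0.27, IAA30 from -0.79 to -0.46 and IAA20 from -1.13 to -0.35. With pseudocounts of 1 and 64, IAA20 was at -1.33 and -0.38 and IAA30 at -0.72 and -0.36, as the construction of the scale gives for dim signals. The 25S rRNA control or some spike-in controls stood apart on 2,4-D replicate 1 and brassinazole replicate 3. Without these 2 arrays, IAA30 was at -0.38 (adjusted p = 0.429) and IAA20 at -0.49. IAA33 turned to 0.039 in that fit. IAA34 turned to 0.00070 with quantile normalization, and with 1 array left out it ranged from -0.12 to 0.041, positive without 2,4-D replicate 3 (0.022) or brassinazole replicate 1 (0.041). The cause was not tested. Probe sets called numbered 1282, against 755 without the trend, 812 without the 2 arrays and 821 to 1150 with 1 array left out, where fewer arrays alone give fewer calls. With median centring the called probe sets were 676 higher and 609 lower, against 586 and 696.

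The titles number the replicates alike in both groups. Deviations from the group means correlated at 0.037, 0.063 and 0.049 between same-numbered arrays and at -0.042 to -0.0099 between others. Each array was thus most like its own number, but all these values are small. Deviations cancel within a group, so the negative values follow in part from the positive ones. The pattern is at most a hint from the data and not the design. With the replicate block the tested genes called were again 0, 1280 probe sets were called, and adjusted p was 0.179 for IAA18, 0.173 for IAA29, 0.0774 for IAA30 and 0.149 for IAA20.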
